A study of Mus musculus with 46 samples.

Results

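The cecum arrays of mice fed HFD + inul PB, a high-fat diet carrying inulin propionate ester and inulin butyrate ester, were compared with those of mice fed the unsupplemented high-fat diet, HFD. The cecum arrays whose titles name the 2 esters (5 arrays) and those whose titles name HFD alone (6 arrays) were taken, 11 of the 46 arrays of the series. The former are called ester arrays below. The series holds cecum and liver arrays of 4 diets, 22 of them from cecum. The other cecum arrays, 6 of HFD + inulin and 5 of a low-fat diet (LFD), entered the same fit and show each gene on the other diets. Each array was hybridised with RNA of 1 mouse.

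All mice were male C57BL/6, an inbred laboratory strain, aged 12 weeks when the diets began and 20 weeks at the end, after 8 weeks of feeding. Fat supplied 45% of the energy in HFD and 10% in LFD. In HFD + inul PB, corn starch and cellulose, each at 5% of the diet weight, gave way to 5% inulin propionate ester and 5% inulin butyrate ester. In HFD + inulin the same share of the diet, 10% in all, gave way to plain inulin. RNA came from whole cecum tissue, so that epithelium, muscle, immune cells and attached fat were measured together. In such tissue fewer cells of a type and less RNA per cell cannot be told apart. The arrays were one-colour Agilent oligonucleotide arrays, on which the brightness of a probe is a relative measure of 1 transcript. Levels are therefore given as normalised log2 signals, a log2 difference of 1 being a doubling. Levels of different genes were not compared, and probes were set against each other only to choose 1 per gene.

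Inulin is a fructose polymer that passes the small intestine undigested and is fermented in the cecum to short-chain fatty acids, chiefly acetate, propionate and butyrate. Esterified inulin releases the attached acid when gut bacteria cleave it. Butyrate is the main fuel of the absorptive colonocyte and inhibits histone deacetylases, and propionate and butyrate also signal through receptors on epithelial and immune cells. The cecal epithelium is renewed from stem cells at the crypt base, which yield absorptive cells and secretory cells such as the mucus-producing goblet cell.

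The arrays were of like quality. The share of spots well above background averaged 52.8% ± 2.21 (SD, n = 6) in HFD and 53.1% ± 2.16 (SD, n = 5) in HFD + inul PB, a difference of 0.26 percentage points (two-sided exact permutation test, P = 0.848, with 0.00216 the smallest P this test can give). The 22 cecum arrays correlated with each other between 0.951 and 0.989 over all probes. Signals of the large intestine were bright on each of them: the bicarbonate exchanger Slc26a3, the mucin Muc2 and the muscle actin Acta2 were well above background on 22 of 22 arrays. Albumin (Alb) and the pancreatic enzymes Cpa1, Pnlip and Prss2 were well above background on 0 of 22. Other members of their lists were seen: 5 of 9 hepatocyte and 5 of 15 pancreatic acinar markers were well above background on at least 11 arrays.

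HFD replicate 5 stood apart. Fabp6, the bile acid binding protein of the ileum, had a level of 18.77 there and at most 11.04 on the other HFD arrays. The mean over the 7 detected of 13 measured small intestinal enterocyte and Paneth cell markers was 14.59 on HFD replicate 5. It lay between 9.47 and 10.14 on the other 5 HFD arrays. HFD + inul PB replicate 5 had the highest mean of its diet, 11.36, with Fabp6 at 15.54. Sis, sucrase-isomaltase of the small intestinal brush border, reached 14.81 on HFD replicate 5 and 11.14 on HFD + inul PB replicate 5. The part these signals have in the results was not tested beyond leaving the arrays out, so the calls kept without these 2 arrays are also given for the main lists below.

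Adipocyte markers varied widely between arrays and ran lower on the esters, with overlap. The mean over the 16 detected of 18 measured markers lay between 10.3 and 12.83 in HFD (median 11.19). In HFD + inul PB it lay between 8.36 and 10.68 (median 8.69). The log2 of their summed level ran from 15.81 to 18.19 in HFD and from 15.45 to 16.19 in HFD + inul PB. Adipoq, the adipocyte hormone adiponectin, had 9.91 to 13.997 (median 11.47) in HFD. In HFD + inul PB it had 2.86, 3.88, 2.72, 10.09 and 8.08, high on replicates 4 and 5 and near the detection limit on the others, and its probe passed background on 2 of these 5 arrays. Its difference of -6.21 ± 2.000 (SE, adjusted P = 0.0671) did not pass the test. Leptin (Lep) was well above background on 4 of 6 HFD arrays and on 0 of 5 HFD + inul PB arrays (at least 2.51-fold higher in HFD, adjusted P = 0.0593).

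Of the 18 adipocyte markers, 4 were lower at an adjusted P under 0.05, against 5.53% of all known genes, and none kept that call whichever array was left out. The count was between 0 and 2 without any of HFD replicates 1, 2, 3, 5 and 6, HFD + inulin replicate 1, HFD + inul PB replicates 1, 2, 3 and 5 or LFD replicates 1, 2 and 5, and 8 without LFD replicate 4. Fabp4, a fatty acid carrier, was called (-3.05 ± 0.88, SE, adjusted P = 0.0400) but lost the call without any of HFD replicates 1, 2, 3, 5 and 6 or HFD + inul PB replicates 1, 2, 3 and 5 (adjusted P up to 0.0893). Cd36, a fatty acid transporter of adipocytes and endothelium, fell by 2.50 ± 0.63 (SE, adjusted P = 0.0208; 0.0566 without HFD + inul PB replicate 5). Cfd, the adipocyte protease adipsin, had 11.63 to 15.62 (median 13.73) in HFD and 4.89, 7.18, 3.69, 13.20 and 10.92 in HFD + inul PB, a difference of -5.89 ± 2.31 (SE, adjusted P = 0.142). The calls kept in a fit with the adipocyte marker mean as a covariate are therefore also given for these lists. Both fits were added after these levels had been seen.

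**Figure D1:**
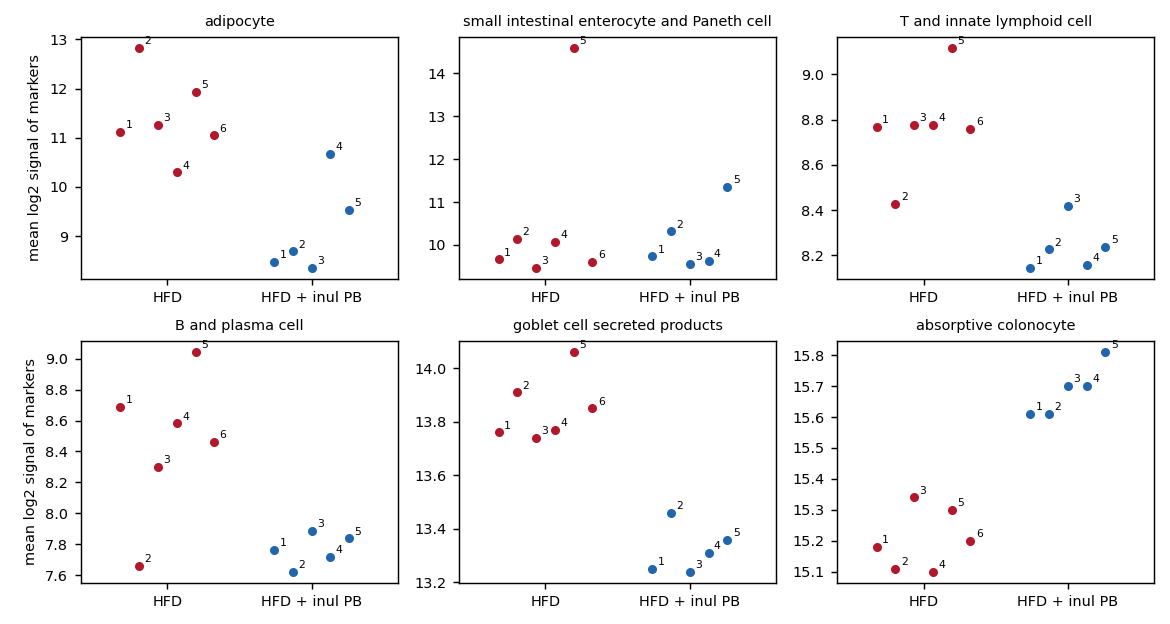
Mean normalised log2 signal over the detected genes of 6 marker lists on each HFD array (red) and HFD + inul PB array (blue). The replicate number stands beside each point. HFD replicate 5 reached 14.59 for small intestinal markers, adipocyte markers overlapped between the diets, and the goblet cell, absorptive colonocyte and T cell lists did not overlap.

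Across the array 3907 of 55681 probes differed between HFD + inul PB and HFD (limma, Benjamini-Hochberg adjusted P under 0.05), which is 7.02%. In the higher direction 1953 probes were called (3.51%) and in the lower direction 1954 (3.51%). Scaling by the 75th percentile in place of cyclic loess gave 1758 calls in the higher and 896 in the lower direction. Among 19298 known genes, each read from its brightest probe, 2085 were called (10.8%), 1017 higher (5.27%) and 1068 lower (5.53%). The call held whichever of the 22 arrays was left out for 541 higher genes (2.8%) and 493 lower genes (2.55%). Leaving out HFD + inul PB replicate 5 lowered the count of probes to 2248. The median difference over all known genes was -0.02. Of the 2085 called genes, 1623 (77.8%) did not overlap between the HFD and HFD + inul PB arrays. Absence of overlap is thus common among called genes, here and below. The 77.8% covers called genes alone, and the share over all known genes was not determined.

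The arrays lay on 3 slides that each held both diets. With slide as a block 5015 probes were called. Wherever they sat on a slide, the HFD arrays occupied column 1 or 3 and the HFD + inul PB arrays column 2 or 4, so column and diet cannot be told apart. Without both replicates 5, 1065 of the 2085 genes remained called (51.1%), and with the adipocyte covariate 293 did (14.1%).

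The largest rise among known genes whose call held whichever array was left out was that of Tex19.1, a germline and stem cell gene that holds retrotransposons in check. Its log2 level lay between 3.89 and 7.38 (median 5.82) in HFD, well above background on 3 of 6 arrays, and was 11.10, 11.35, 10.57, 10.65 and 11.10 in HFD + inul PB. Absence of overlap between the diets was a condition for choosing this and the other genes of largest change. The difference was 5.12 ± 0.57 (SE, adjusted P = 4.97e-05), a rise on slides 1, 2 and 3 of 4.76, 4.53 and 5.88. Of 13 measured genes of germline genome defence Tex19.1 was the only 1 called in either direction. No more than 3 of the 13 were well above background on at least 11 cecum arrays, which limits what the others can show. At an unadjusted limma P under 0.05, 2 of the 13 were higher and 0 lower. Ttll9, a tubulin-modifying ligase of cilia, had 5.78 to 7.82 (median 7.28) in HFD and 11.26, 11.01, 11.03, 11.19 and 11.51 in HFD + inul PB (4.18 ± 0.49, SE, adjusted P = 0.000100). Of its 3 probes 2 were called, both higher. Casr, the calcium-sensing receptor, which in gut epithelium responds to calcium and amino acids, had 2.80 to 6.37 (median 5.35) in HFD, well above background on 4 of 6 arrays, and 7.70, 7.61, 7.75, 8.06 and 7.80 in HFD + inul PB (2.72 ± 0.46, SE, adjusted P = 0.00177). Its ester levels lay in a narrow band.

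Other large rises include genes best known from other tissues. Gnal, the G protein alpha subunit of olfactory neurons, rose by 2.24 ± 0.28 (SE, adjusted P = 0.000164) and Cspg5, a brain chondroitin sulfate proteoglycan, by 2.02 ± 0.25 (SE, adjusted P = 0.000137). Gja5, a gap junction connexin, rose by 1.97 ± 0.47 (SE, adjusted P = 0.0148), Trim6, a ubiquitin ligase, by 1.95 ± 0.38 (SE, adjusted P = 0.00433) and Pdzd7, a scaffold protein of sensory hair cells, by 2.66 ± 0.60 (SE, adjusted P = 0.0108). Trim6 was well above background on 5 and Pdzd7 on 3 of the 6 HFD arrays. A further 4 genes were not well above background on any HFD array, so only a bound can be given. Sprr2h, a small proline-rich envelope protein, was at least 5.01-fold higher (adjusted P = 0.00324), Cfap65, a flagellar protein, at least 1.99-fold (adjusted P = 0.000153), Krtap3-1, a hair keratin-associated protein, at least 2.68-fold (adjusted P = 0.00716) and Nyx, a retinal leucine-rich protein, at least 2.00-fold (adjusted P = 0.00452).

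Among the genes held to the same rule and measured on both diets, the largest fall was that of Sval1, a gene of the seminal vesicle antigen family. HFD arrays held 7.80 to 10.19 (median 8.24), the highest on replicate 5, and HFD + inul PB arrays 4.57, 5.75, 5.79, 5.35 and 5.75, well above background on 4 of 5 (-3.05 ± 0.46, SE, adjusted P = 0.000834). Fer1l4, a ferlin family gene, was on 0 of 5 ester arrays well above background and was at least 3.42-fold lower there (adjusted P = 0.00275). B3galt5, a galactosyltransferase that extends glycan chains on epithelial cells, fell by 2.53 ± 0.57 (SE, adjusted P = 0.0107). It had 10.19 to 11.81 (median 11.39) in HFD and 8.37, 8.96, 9.12, 9.19 and 7.54 in HFD + inul PB. Il1rl1, the receptor for the alarmin IL-33, had 9.24 to 10.04 (median 9.57) in HFD and 7.60, 7.47, 7.73, 7.70 and 7.52 in HFD + inul PB (-2.02 ± 0.36, SE, adjusted P = 0.00264).

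The other large falls were in genes of varied roles. Cd1d1, which presents lipid antigens to natural killer T cells, fell by 1.89 ± 0.45 (SE, adjusted P = 0.0144) and Sema7a, a membrane-anchored semaphorin, fell by 1.66 ± 0.25 (SE, adjusted P = 0.000829). Chst3, a chondroitin sulfotransferase, differed by -1.92 ± 0.35 (SE, adjusted P = 0.00284), Smoc1, a matrix protein that restrains BMP signals, by -1.89 ± 0.39 (SE, adjusted P = 0.00687) and Rbp7, a retinol carrier of endothelium and adipose tissue, by -2.31 ± 0.36 (SE, adjusted P = 0.00101). Tgm5, a transglutaminase, differed by -2.04 ± 0.25 (SE, adjusted P = 0.000145), Prss12, the protease neurotrypsin, by -2.09 ± 0.36 (SE, adjusted P = 0.00189), Rab30, a Golgi GTPase, by -1.72 ± 0.34 (SE, adjusted P = 0.00491), Ankrd22, an ankyrin repeat protein, by -1.66 ± 0.38 (SE, adjusted P = 0.0119), and Depp1, a target of FOXO transcription factors, by -1.63 ± 0.37 (SE, adjusted P = 0.0109). Where several probes read 1 gene, 1 of 2 were called for Pdzd7, Gja5 and Rab30, 1 of 3 for Trim6 and 2 of 3 for Il1rl1, in the direction given. The ester arrays well above background numbered 1 of 5 for Chst3 and Ankrd22, 3 for Tgm5, Prss12 and Rab30 and 4 for Smoc1.

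Leaving out both replicates 5 lost the calls of Pdzd7 (adjusted P = 0.0634), Gja5 (0.0603), Cd1d1 (0.0559) and Depp1 (0.0646). With the adipocyte covariate these 4 and Sprr2h, Krtap3-1, Nyx, Trim6, Fer1l4, B3galt5, Prss12, Smoc1, Rab30 and Ankrd22 were not called, with adjusted P between 0.0572 and 0.226, while the others named above kept their calls in both fits.

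**Figure D2:**
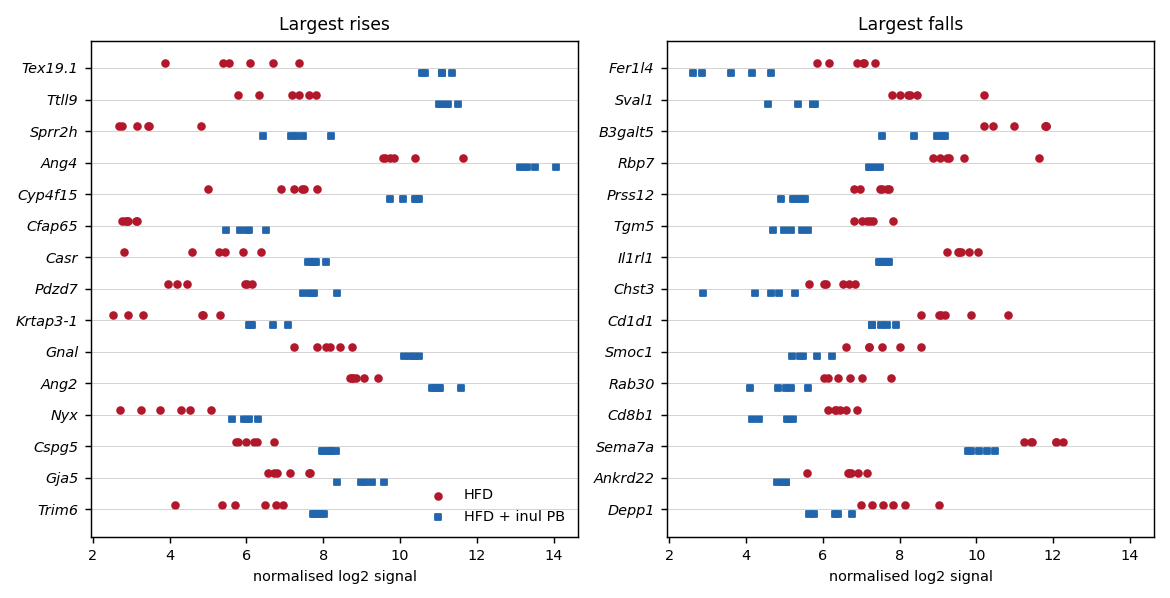
Normalised log2 signal of the 15 known genes with the largest rise (left) and the 15 with the largest fall (right) among those that kept their call whichever cecum array was left out, were well above background on every array of the higher diet and did not overlap between the diets, 1 point per array, HFD in red and HFD + inul PB in blue. Tex19.1 leads the rises with a difference of 5.12.

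The ester diet was also compared with plain inulin. By weight 5% of each ester stood against 10% inulin, so the amounts of inulin itself need not be equal. On the slides the inulin arrays sat in column 1 or 3 and the ester arrays in column 2 or 4. Here too column and diet cannot be told apart. This comparison called 12 of 55681 probes (0.0216%) and 5 of 19298 known genes (0.0259%). The 5 genes were 3 angiogenins, Ang4, Ang2 and Ang, and the metallothioneins Mt1 and Mt2. The calls of Ang and Mt1 were lost in a fit of only these 2 diets. Angiogenins are small secreted ribonucleases, and Ang4 is an antimicrobial protein of Paneth and goblet cells. Metallothioneins bind zinc and copper and are induced by them.

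Ang4 had 9.56 to 11.64 (median 9.78) in HFD and 13.24, 14.06, 13.13, 13.30 and 13.52 in HFD + inul PB. On the other diets its level ran from 9.86 to 10.98 with inulin and from 9.74 to 10.99 in LFD, so that the 5 ester arrays stood above all 17 others. Its difference was 3.32 ± 0.33 (SE, adjusted P = 2.62e-05) from HFD, a 10.0-fold rise, and 3.09 ± 0.33 (SE, adjusted P = 0.000153) from HFD + inulin. HFD replicate 5 was the highest HFD array, and without both replicates 5 the adjusted P against HFD was 8.24e-06. Ang2 had 8.71 to 9.42 (median 8.81) in HFD and 10.83, 11.59, 10.92, 11.05 and 11.01 in HFD + inul PB (2.15 ± 0.18, SE, adjusted P = 6.61e-06 from HFD and 1.86 ± 0.18, SE, adjusted P = 8.92e-05 from inulin). Ang had 10.20 to 10.67 (median 10.37) and 11.48, 12.20, 11.62, 11.75 and 11.90 (1.40 ± 0.14, SE, adjusted P = 2.92e-05 and 1.10 ± 0.14, SE, adjusted P = 0.00151). Neither overlapped with any other diet. Rnase4, a ribonuclease whose gene shares its first position with Ang in the RefSeq table, had 10.98 to 11.70 (median 11.55) in HFD and 11.87, 11.69, 11.64, 11.77 and 11.83 in HFD + inul PB (0.31 ± 0.13, SE, adjusted P = 0.197). All 4 genes lie on chromosome 14. The angiogenins are close paralogues, and cross-hybridisation between their probes was not tested.

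Mt1 had 14.18 to 14.78 (median 14.52) in HFD and 13.88, 13.71, 13.78, 13.50 and 13.67 in HFD + inul PB, -0.81 ± 0.15 (SE, adjusted P = 0.00327) from HFD. On plain inulin it lay between 14.25 and 15.36, and the ester diet differed from it by -1.14 ± 0.15 (SE, adjusted P = 0.00195). Mt2 had 12.99 to 13.81 (median 13.36) in HFD, 13.52 to 14.61 on inulin, 12.93 to 14.17 in LFD and 12.70, 12.97, 12.91, 12.07 and 12.25 on the esters. Its difference was -1.65 ± 0.24 (SE, adjusted P = 0.00724) from inulin, while that from HFD, -0.79 ± 0.24 (SE, adjusted P = 0.0519), missed the threshold. Both metallothioneins lay lower on each ester array than on each inulin array.

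The promoters of Ang4, Mt1 and Mt2 are shown because these genes separated the fiber diets. The sequences are RefSeq windows on GRCm38.p6, 250 bases before to 50 after the annotated start, 5′ to 3′ on the gene's strand: Ang4 at chr14:51773541-51773840 (minus strand), Mt1 at chr8:94178839-94179138 and Mt2 at chr8:94172368-94172667 (plus strand). Capitals mark TATATA in Ang4 and, in the metallothioneins, TGCACNC or TGCGCNC on either strand, the letters of the metal response element core. The table holds no window for Ang2.
Ang4: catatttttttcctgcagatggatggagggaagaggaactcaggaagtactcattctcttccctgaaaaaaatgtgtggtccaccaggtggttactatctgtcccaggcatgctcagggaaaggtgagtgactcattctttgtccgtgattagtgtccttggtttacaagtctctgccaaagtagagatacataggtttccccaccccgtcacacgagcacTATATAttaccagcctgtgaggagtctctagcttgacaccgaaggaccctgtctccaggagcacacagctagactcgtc
Mt1: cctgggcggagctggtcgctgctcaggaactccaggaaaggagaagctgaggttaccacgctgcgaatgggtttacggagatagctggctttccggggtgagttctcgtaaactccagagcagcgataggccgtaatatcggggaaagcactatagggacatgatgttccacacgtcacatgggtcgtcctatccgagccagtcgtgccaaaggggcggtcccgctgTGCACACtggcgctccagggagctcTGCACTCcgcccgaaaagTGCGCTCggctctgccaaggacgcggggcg
Mt2: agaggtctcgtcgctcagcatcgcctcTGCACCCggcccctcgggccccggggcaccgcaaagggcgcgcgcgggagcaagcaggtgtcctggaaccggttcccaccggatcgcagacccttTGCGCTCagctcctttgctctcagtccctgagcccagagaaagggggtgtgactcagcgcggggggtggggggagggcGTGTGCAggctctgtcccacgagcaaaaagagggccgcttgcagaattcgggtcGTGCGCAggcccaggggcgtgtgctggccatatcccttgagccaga

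TATATA, which reads the same on either strand, occurred 1 time in the Ang4 window and in 5.67% of 32851 promoters of the table. TGCACNC or TGCGCNC occurred 3 times in the Mt1 window, all on the printed strand, and 4 times in that of Mt2, 2 on each strand. At least 1 match stood in 25.7% of all promoters and at least 3 in 1.97%. A match is a stretch of letters and not a bound site.

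The remaining 7 probes of this comparison carry no angiogenin or metallothionein name. A pair of probes for 1 transcript without a gene symbol in the table differed by 3.02 ± 0.31 (SE, adjusted P = 0.000101) and 2.24 ± 0.22 (SE, adjusted P = 8.92e-05) from inulin and by 3.40 and 2.48 from HFD. A trio of probes lies in a long non-coding RNA region on the reverse strand of mm9 chr15:58327703-58329443. In HFD they were well above background on 0, 1 and 0 of 6 arrays, on inulin on 0, 2 and 0 of 6 and with the esters on 5, 5 and 3 of 5. The first was at least 3.665-fold (adjusted P = 0.000551) and the third at least 1.58-fold higher with the esters than on inulin (adjusted P = 0.000341). The second differed from inulin by 2.57 ± 0.42 (SE, adjusted P = 0.0285), a call lost in 5 of the fits leaving out 1 array. A further unnamed transcript was lower by 1.24 on the esters than on inulin (difference -1.24 ± 0.15, SE, adjusted P = 0.000761). Fhit, a diadenosine triphosphate hydrolase, differed by -0.66 ± 0.11 (SE, adjusted P = 0.0328) on a probe that was not the brightest of its gene, a call that was lost in 9 of the fits leaving out 1 array.

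For most genes the 2 fiber diets were not told apart, which does not show that they are equal. The difference between esters and inulin was 1.36 ± 0.57 (SE) for Tex19.1, -0.35 ± 0.23 (SE) for Muc2 and 0.11 ± 0.25 (SE) for Slc5a8. Cyp4f15 stood at -0.28 ± 0.42 (SE). Both comparisons with HFD share the HFD arrays, so values of HFD + inulin minus HFD are set beside those of the esters below as descriptions.

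**Figure D3:**
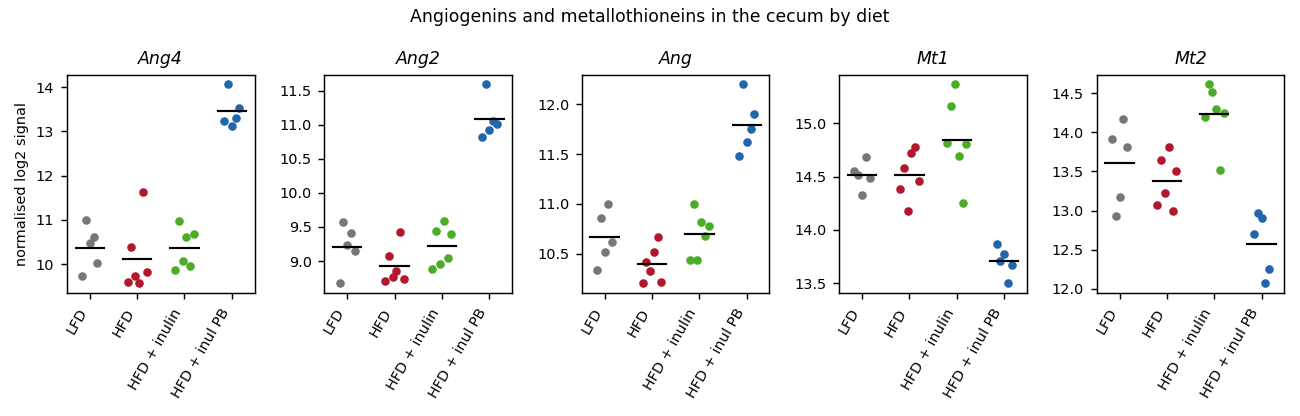
Normalised log2 signal of Ang4, Ang2, Ang, Mt1 and Mt2 on all 22 cecum arrays by diet, with a line at each diet's mean. The 5 HFD + inul PB arrays lie above all others for the angiogenins and below all others for Mt1.

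Most goblet cell genes fell. Counts of this and the following lists stand against 5.27% of all known genes called higher and 5.53% called lower. The shares are larger over detected known genes, of which 981 of 13592 were higher and 1017 lower. Most lists consist mainly of detected genes, so their counts are better set against these. Of 20 measured goblet cell genes, 14 were lower, 1 was higher and 5 were not called, with a median difference of -0.84 against -0.02 over all known genes. All 14 kept the call whichever array was left out. The list's mean level was 13.74 to 14.06 in HFD and 13.24 to 13.46 in HFD + inul PB, without overlap. The member that rose was Ang4.

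Muc2, the gel-forming mucin of the colon, had 14.49 to 15.93 (median 14.82) in HFD, with replicate 5 the highest, and 13.58, 13.77, 13.58, 13.67 and 13.83 in HFD + inul PB. No ester array reached an HFD array, and Muc2 fell by 1.28 ± 0.23 (SE, adjusted P = 0.00246), on the slides -0.95, -1.28 and -1.66. The mucus proteins Fcgbp and Zg16 followed: Fcgbp had 16.63 to 17.13 (median 16.65) and 15.94, 15.99, 15.93, 15.82 and 16.15 (-0.78 ± 0.11, SE, adjusted P = 0.000291), and Zg16, a lectin that binds bacteria, 17.66 to 18.53 (median 17.80) and 16.90, 17.05, 16.87, 16.77 and 16.94 (-0.996 ± 0.13, SE, adjusted P = 0.000229). Tff3, the trefoil repair peptide, differed by -0.64 ± 0.13 (SE, adjusted P = 0.00633). These were separated between the diets on each array. Clca1, a mucus-processing protease, had 15.995 to 17.50 (median 16.40) in HFD and 16.34, 16.99, 16.66, 16.52 and 16.64 in HFD + inul PB, an overlap with a difference of 0.06 ± 0.21 (SE, adjusted P = 0.933).

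Atoh1, the transcription factor that commits cells to this lineage, had 11.44 to 11.76 (median 11.57) in HFD and 10.60, 11.03, 10.75, 10.45 and 10.56 in HFD + inul PB (-0.90 ± 0.13, SE, adjusted P = 0.000419). Spdef, which drives goblet cell maturation, had 12.38 to 13.17 (median 12.78) and 11.28, 11.71, 11.45, 11.61 and 11.68 (-1.24 ± 0.19, SE, adjusted P = 0.00101). Both were lower on each ester array than on each HFD array. Agr2, the disulfide isomerase that folds mucins, differed by -1.37 ± 0.22 (SE, adjusted P = 0.00104), and Ern2, the goblet cell sensor of misfolded protein in the endoplasmic reticulum, by -0.74 ± 0.13 (SE, adjusted P = 0.00267). In the list of the unfolded protein response and secretory pathway 4 of 27 genes were lower, and 1 of these 4, Ern2, kept the call throughout and in both added fits.

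Further members that fell, given as the log2 difference ± SE, were Tpsg1, a membrane tryptase (-1.39 ± 0.23), Capn9, a gut calpain (-1.20 ± 0.13), Sytl2, which docks secretory granules (-1.04 ± 0.14), Bcas1 (-0.99 ± 0.11), the secreted Reg4 (-0.99 ± 0.19), Spink4, a protease inhibitor (-0.74 ± 0.12), and the kallikrein Klk1 (-0.62 ± 0.14). Of 8 deep crypt secretory cell genes, 5 were lower and 3 of the 5 throughout, a list that shares Agr2, Reg4, Spink4 and Retnlb with the goblet cells. The count was 3 without both replicates 5 and 2 with the adipocyte covariate. Among 24 genes of mucin glycosylation and sulfation, 2 were lower throughout, the sulfotransferase Chst4 (-0.88 ± 0.13) and the fucosyltransferase Fut8 (-0.63 ± 0.10), and 1 was higher. Of 23 enteroendocrine genes, Sct, the hormone secretin, was the 1 called: it had 15.59 to 15.88 (median 15.70) in HFD and 15.07, 15.13, 14.97, 14.97 and 15.06 in HFD + inul PB (-0.67 ± 0.10, SE, adjusted P = 0.000659). HFD + inulin minus HFD was -0.93 for Muc2, -0.84 for Spdef and -0.51 for Sct.

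Without both replicates 5 all 14 goblet cell genes stayed called. With the adipocyte covariate 9 did, the calls lost being those of Muc2 (adjusted P = 0.0622), Reg4 (0.0791), Tff3 (0.0725), Tpsg1 (0.0522) and Klk1 (0.163), and Klk1 was also lost with normexp, without background correction and on the authors' processed values.

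**Figure D4:**
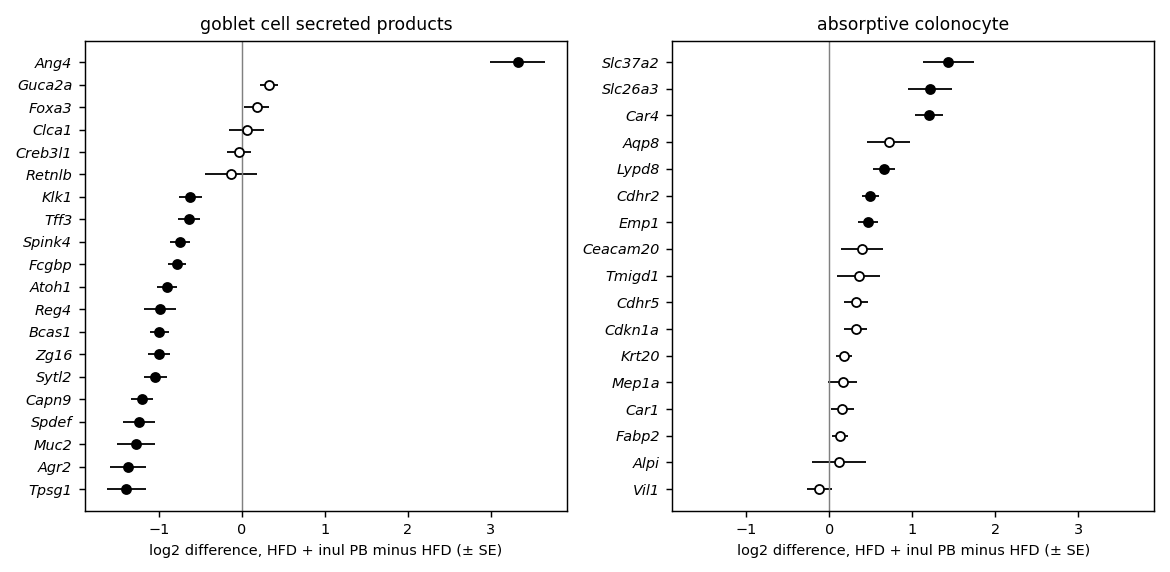
Log2 difference, HFD + inul PB minus HFD, with its SE, for each measured gene of the goblet cell list (left, 20 genes) and the absorptive colonocyte list (right, 17 genes); filled points passed an adjusted P under 0.05. On the left 14 filled points lie below 0 and Ang4 above, and on the right 6 filled points lie above 0 and none below.

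In the absorptive colonocyte list the called genes were higher. Of 17 measured genes 6 were higher, 16 had a difference above 0 and the median difference was 0.35. The list's mean was 15.10 to 15.34 in HFD and 15.61 to 15.81 in HFD + inul PB. Slc26a3, which takes up chloride in exchange for bicarbonate, had 12.70 to 14.55 (median 14.36) in HFD and 15.25, 15.35, 15.31, 15.28 and 15.33 in HFD + inul PB. The ester arrays lay close together and above each HFD array, of which replicate 5 was the lowest, and the difference was 1.21 ± 0.26 (SE, adjusted P = 0.00782), on the slides 1.13, 0.83 and 1.68. Car4, the membrane carbonic anhydrase, had 12.87 to 13.64 (median 13.44) and 14.30, 14.44, 14.79, 14.58 and 14.82 (1.204 ± 0.17, SE, adjusted P = 0.000448). Slc37a2, a sugar phosphate transporter, had 12.23 to 13.97 (median 13.85) and 14.78, 15.21, 14.98, 14.81 and 14.95 (1.43 ± 0.30, SE, adjusted P = 0.00757). Lypd8, which keeps flagellated bacteria from the epithelium, rose by 0.65 ± 0.13 (SE, adjusted P = 0.00532), and the brush border protein Cdhr2 by 0.49 ± 0.10 (SE, adjusted P = 0.00502). Each of these was separated between diets, as were 77.8% of all called known genes.

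Other markers of this cell did not pass. Car1, the cytosolic carbonic anhydrase of the large intestine, had 17.12 to 18.22 (median 18.03) and 17.92, 18.03, 18.13, 18.12 and 18.07 (0.16 ± 0.14, SE, adjusted P = 0.593). Aqp8, a water channel, differed by 0.72 ± 0.26 (SE, adjusted P = 0.108) and Krt20, the keratin of mature surface cells, by 0.18 ± 0.09 (SE, adjusted P = 0.301). In the list of electrolyte and water transport 5 of 35 genes were higher and 1 lower, and without both replicates 5 the calls kept were 4 and 1, with the adipocyte covariate 2 and 0. Nr3c2, the mineralocorticoid receptor, had 7.55 to 8.09 (median 7.91) in HFD and 8.43, 8.60, 8.41, 9.08 and 8.76 in HFD + inul PB (0.82 ± 0.15, SE, adjusted P = 0.00253). Slc9a2, a sodium-proton exchanger, differed by 0.56 ± 0.12 (SE, adjusted P = 0.00789).

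Without both replicates 5 the colonocyte list held 5 calls, and with the adipocyte covariate 2, Car4 (adjusted P = 0.0191) and Lypd8 (0.0328); Slc26a3 stood at 0.150, Slc37a2 at 0.169, Cdhr2 at 0.0510 and Slc9a2 at 0.0738.

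Calls among barrier genes were few, near the share over all known genes for the junctions. Muc4, a membrane-bound mucin of epithelial surfaces, had 12.41 to 13.58 (median 13.40) in HFD and 14.63, 14.59, 14.87, 14.88 and 14.90 in HFD + inul PB, a rise of 1.52 ± 0.28 (SE, adjusted P = 0.00288) seen on both of its probes. It was the 1 called gene of 5 measured membrane mucins. Among 24 genes of tight and adherens junctions 2 were higher and 1 lower, the lower one being the 1 call kept without both replicates 5, and 0 were kept with the adipocyte covariate. Cldn8, a sealing claudin of the distal colon, had 8.85 to 9.97 (median 9.46) in HFD and 8.57, 8.25, 8.75, 7.30 and 8.27 in HFD + inul PB, and fell by 1.26 ± 0.27 (SE, adjusted P = 0.00859), while Cldn23, a claudin of surface epithelium, rose by 0.76 ± 0.18 (SE, adjusted P = 0.0128) with overlapping arrays. Cldn4 had 9.57 to 11.002 (median 10.69) in HFD and 10.31, 9.66, 9.15, 9.73 and 9.55 in HFD + inul PB (-0.87 ± 0.27, SE, adjusted P = 0.0570). Cldn5, the claudin of endothelium, differed by -1.19 ± 0.36 (SE, adjusted P = 0.0509), which also missed the threshold. Of the 13 other ways of processing 7 called Cldn4 and 9 called Cldn5 lower, and neither was called without both replicates 5 or with the adipocyte covariate. The calls of Muc4 (adjusted P = 0.0796), Cldn8 (0.0590) and Cldn23 (0.138) were lost with the adipocyte covariate, that of Cldn23 also without both replicates 5 (0.0663).

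Genes that import and sense short-chain fatty acids gave 1 rise and 2 falls among 13 measured, the rise alone being kept without both replicates 5 and none with the adipocyte covariate. Slc5a8, the sodium-coupled carrier of butyrate and propionate, had 9.58 to 11.43 (median 9.98) in HFD and 11.61, 11.54, 11.59, 11.63 and 11.48 in HFD + inul PB. HFD replicate 5, at 11.43, came close to the ester arrays, and the others were at most 10.104. The rise was 1.41 ± 0.25 (SE, adjusted P = 0.00264), beside 1.30 for HFD + inulin minus HFD. Ffar2, the receptor for acetate and propionate, had 8.50 to 9.85 (median 8.80) and 8.17, 8.07, 7.92, 8.22 and 7.61 (-0.94 ± 0.23, SE, adjusted P = 0.0159), a call lost without HFD + inul PB replicate 5 (adjusted P = 0.0545). Ffar3, the related receptor, had 6.38 to 7.16 (median 6.92) and 7.11, 7.04, 7.05, 6.88 and 7.31 (0.22 ± 0.16, SE, adjusted P = 0.5003).

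Of 21 genes that activate and oxidise propionate and butyrate 4 were higher and 1 lower, and 1 in each direction kept its call in either of the added fits. Acss1, a mitochondrial acetyl-CoA synthetase, had 12.98 to 13.41 (median 13.33) in HFD and 13.98, 14.02, 14.03, 13.79 and 13.96 in HFD + inul PB (0.68 ± 0.10, SE, adjusted P = 0.000917). Acsm3, a medium-chain acyl-CoA synthetase that accepts butyrate, had 9.42 to 10.24 (median 10.14) and 8.91, 9.01, 8.70, 8.87 and 8.72 (-1.18 ± 0.19, SE, adjusted P = 0.00119), and no array of either gene overlapped. Pcca, a subunit of propionyl-CoA carboxylase, differed by 0.65 ± 0.17 (SE, adjusted P = 0.0215) and lost the call without HFD + inul PB replicate 4 or 5 (up to 0.0581). Oxct1, which lets cells burn ketone bodies, had 13.03 to 14.35 (median 13.31) and 12.48, 12.49, 12.33, 12.39 and 12.49 (-1.03 ± 0.24, SE, adjusted P = 0.0120) and was the 1 call among 7 ketone body genes. Slc5a8 (adjusted P = 0.0704), Oxct1 (0.230), Ffar2 (0.254) and Pcca (0.277) were not called with the adipocyte covariate, Ffar2 (0.0769) and Pcca (0.0603) also not without both replicates 5, and Acss1 and Acsm3 remained.

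Fatty acid oxidation genes gave rises alone, with 4 of 24 beta-oxidation genes higher and a median difference of 0.14. The count was 2 without HFD + inul PB replicate 3 or 5 and 1 without both replicates 5 or with the adipocyte covariate. Acaa1a and Acaa1b, the peroxisomal thiolases, rose by 0.35 ± 0.08 (SE, adjusted P = 0.0142) and 0.47 ± 0.11 (SE, adjusted P = 0.0114). Slc27a4, a fatty acid transporter of the intestine, had 7.57 to 8.16 (median 7.76) in HFD and 8.44, 8.47, 8.54, 8.41 and 8.73 in HFD + inul PB (0.69 ± 0.13, SE, adjusted P = 0.00273). In cholesterol synthesis and uptake 5 of 25 genes were lower and 1 higher, and none of the 5 kept the call whichever array was left out. Without both replicates 5 the call of 1 lower and 1 higher gene remained, and with the adipocyte covariate 0. The count of lower genes dropped to 0 when HFD replicate 5, HFD replicate 6 or the first ester array was left out, and to between 1 and 3 for any of HFD replicates 1, 2 and 3, the other ester arrays and LFD replicate 1. Slc51b, a subunit of the basolateral bile acid exporter, had 12.88 to 14.43 (median 13.23) in HFD and 11.94, 12.29, 11.98, 11.68 and 12.73 in HFD + inul PB (-1.25 ± 0.30, SE, adjusted P = 0.0144) and was the 1 call of 13 bile acid genes. Pck1, the enzyme that commits cells to gluconeogenesis, differed by 0.89 ± 0.23 (SE, adjusted P = 0.0219), a call lost when replicate 4 of either diet was left out (up to 0.0579). When both replicates 5 were left out Acaa1b (adjusted P = 0.0524) and Pck1 (0.0659) were lost, and with the adipocyte covariate Acaa1b (0.132), Slc27a4 (0.0710) and Slc51b (0.267).

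Among 34 genes of omega-hydroxylation and eicosanoids 5 were higher and 4 lower, of which 4 and 2 stayed called without both replicates 5 and 2 and 0 with the adipocyte covariate. Cyp4f15, a cytochrome P450 that hydroxylates leukotrienes and fatty acids, had 5.004 to 7.84 (median 7.35) in HFD, well above background on 5 of 6 arrays with replicate 5 the lowest, and 9.75, 10.07, 10.50, 10.44 and 10.40 in HFD + inul PB (3.24 ± 0.42, SE, adjusted P = 0.000188). HFD + inulin minus HFD was 3.52. The related Cyp4f40 fell by 0.58 ± 0.14 (SE, adjusted P = 0.0149), and Cyp4b1, a P450 of fatty acids and xenobiotics, rose by 1.48 ± 0.34 (SE, adjusted P = 0.0115). Alox5, the lipoxygenase that starts leukotriene synthesis, had 7.29 to 8.01 (median 7.56) and 8.35, 8.24, 8.42, 8.51 and 8.54 (0.82 ± 0.13, SE, adjusted P = 0.00119). It differed from inulin by 0.74 ± 0.13 (SE, adjusted P = 0.0725). Ptger4, a prostaglandin E2 receptor, differed by -0.75 ± 0.15 (SE, adjusted P = 0.00413).

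Xenobiotic metabolism, with 44 measured genes, had 7 higher and 5 lower. The count of higher genes was 4 without HFD + inul PB replicate 1, 3 or 4 and 3 without replicate 5. Gsta2, a glutathione transferase, had 12.22 to 12.86 (median 12.43) in HFD and 10.91, 10.84, 11.23, 10.96 and 10.41 in HFD + inul PB (-1.61 ± 0.25, SE, adjusted P = 0.00106), and the related Gsta4 and Mgst2 differed by -0.95 ± 0.11 (SE, adjusted P = 4.84e-05) and -0.48 ± 0.10 (SE, adjusted P = 0.00773). Ces1f, a carboxylesterase, had 12.59 to 13.02 (median 12.82) and 13.85, 13.90, 13.71, 13.86 and 13.71 (1.002 ± 0.10, SE, adjusted P = 2.92e-05). Cyp2d10, a P450, rose by 1.56 ± 0.29 (SE, adjusted P = 0.00314) and Sult1b1, a sulfotransferase, by 0.46 ± 0.11 (SE, adjusted P = 0.0139), whereas Cyp2c68 fell by 1.36 ± 0.31 (SE, adjusted P = 0.0109). The glutathione transferases named fell and the esterase rose without overlap between the diets. Of the 7 higher and 5 lower genes, 3 and 4 kept the call without both replicates 5, and 1 and 2 with the adipocyte covariate. With the adipocyte covariate Cyp4f40, Cyp4b1, Ptger4, Mgst2, Cyp2d10, Sult1b1 and Cyp2c68 were not called (adjusted P between 0.0650 and 0.250), Sult1b1 also not without both replicates 5 (0.0505), and Mgst2 also not under 75th percentile scaling.

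Lymphocyte genes that were called were lower, with the exception of 1 B cell gene. Of 22 T and innate lymphoid cell genes 3 were lower, each whichever array was left out, and 2 in either of the added fits. The count rose to 6 when either HFD replicate 2 or the fifth inulin array was left out and to 5 for the third or sixth inulin array. The mean over the list's detected genes was 8.43 to 9.12 in HFD and 8.15 to 8.42 in HFD + inul PB, without overlap. Cd8a and Cd8b1, the co-receptor chains of cytotoxic T cells, both fell. Cd8a had 7.03 to 7.77 (median 7.38) in HFD and 6.12, 6.47, 6.58, 6.31 and 6.35 in HFD + inul PB (-1.005 ± 0.16, SE, adjusted P = 0.00110), and Cd8b1 had 6.15 to 6.90 (median 6.39) and 5.07, 5.24, 4.33, 5.12 and 4.16, well above background on 3 of 5 ester arrays (-1.68 ± 0.20, SE, adjusted P = 0.000132). Il7r, the interleukin 7 receptor, differed by -1.001 ± 0.23 (SE, adjusted P = 0.0117). Cd3e, carried by all T cells, had 10.40 to 10.91 (median 10.81) and 10.57, 10.42, 10.63, 10.50 and 10.51, an overlap with a difference of -0.22 ± 0.12 (SE, adjusted P = 0.329).

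Of 19 B and plasma cell genes 5 were lower and 1 higher. Calls kept were 2 lower and 1 higher without both replicates 5, and 1 lower with the adipocyte covariate. The count of lower genes was 2 or 3 without any of HFD replicates 1, 4, 5 and 6 or HFD + inul PB replicates 1, 2, 4 and 5. Cd79b, a chain of the B cell receptor, had 8.55 to 10.08 (median 9.73) in HFD and 8.16, 7.94, 8.27, 8.05 and 8.19 in HFD + inul PB (-1.44 ± 0.33, SE, adjusted P = 0.0112), and Cxcr5, the receptor that brings B cells to follicles, 6.23 to 7.11 (median 6.48) and 5.22, 4.97, 4.89, 5.43 and 5.79 (-1.34 ± 0.22, SE, adjusted P = 0.00155, well above background on 4 of 5 ester arrays). The ester arrays were lower throughout for both, though the means over the list's detected genes, 7.66 to 9.04 and 7.62 to 7.89, overlapped. Ccl5, a chemokine of cytotoxic cells, had 12.57 to 14.07 (median 13.01) and 11.97, 12.19, 12.17, 11.61 and 11.90 (-1.18 ± 0.25, SE, adjusted P = 0.00651). When both replicates 5 were left out Il7r was lost (adjusted P = 0.0568), and with the adipocyte covariate Il7r (0.184), Cd79b (0.0893) and Ccl5 (0.0922).

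In the myeloid list 1 of 19 genes was higher and 1 lower, and 1 call was kept without both replicates 5 and 0 with the adipocyte covariate. Mertk, which clears dying cells, rose by 0.86 ± 0.17 (SE, adjusted P = 0.00453), and C1qa, a complement chain of tissue macrophages, had 10.47 to 10.97 (median 10.69) and 9.85, 9.89, 9.73, 10.06 and 9.55 (-0.91 ± 0.22, SE, adjusted P = 0.0159; 0.0510 without HFD + inul PB replicate 5). Ctss, the lysosomal protease that prepares MHC class II, had 14.77 to 15.40 (median 14.995) in HFD and 15.46, 15.61, 15.71, 15.65 and 15.66 in HFD + inul PB (0.60 ± 0.10, SE, adjusted P = 0.00186) and was the 1 call of 12 class II presentation genes.

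Defence and acute phase genes, 22 measured, had 5 higher and 1 lower, of which 4 and 1 were kept without both replicates 5 and 3 and 1 with the adipocyte covariate. Ang4 is among the former and the bacterial sensor Nod2 rose by 0.73 ± 0.16 (SE, adjusted P = 0.00898). Duoxa2, the maturation factor of the epithelial oxidase that makes hydrogen peroxide, had 9.36 to 11.23 (median 10.03) in HFD and 10.79, 10.79, 12.04, 12.29 and 12.51 in HFD + inul PB, with some overlap (1.498 ± 0.36, SE, adjusted P = 0.0158; 0.0561 without HFD + inul PB replicate 5). The serum amyloids Saa1 and Saa2, induced by bacteria in gut epithelium, had 13.32 to 15.64 (median 14.03) and 12.98 to 15.04 (median 13.50) in HFD. In HFD + inul PB Saa1 had 15.23, 14.89, 15.93, 15.43 and 15.91 (1.26 ± 0.39, SE, adjusted P = 0.0532), and Saa2 had 14.86, 14.53, 15.58, 14.99 and 15.62 (1.45 ± 0.36, SE, adjusted P = 0.0195), a call lost without HFD + inul PB replicate 3 or 5 (up to 0.0623). The 2 genes are near-identical in sequence, so their probes may not tell them apart. With the adipocyte covariate Mertk (adjusted P = 0.0899), Nod2 (0.195), C1qa (0.207) and Duoxa2 (0.0637) were not called, and without both replicates 5 C1qa (0.0700) and Saa2 (0.111) were not.

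At the crypt base Lgr5, the receptor that marks stem cells, had 9.12 to 9.63 (median 9.37) in HFD and 8.69, 8.89, 8.97, 8.55 and 8.79 in HFD + inul PB (-0.62 ± 0.11, SE, adjusted P = 0.00204), while 14 of 17 stem and crypt base genes were not called, 1 was higher and 2 lower. Of these calls 2 lower ones stayed without both replicates 5 and 1 with the adipocyte covariate. Of 26 proliferation genes 6 were lower, 1 alone had a difference above 0 and the median was -0.38. The list's mean was 10.58 to 10.88 in HFD and 10.19 to 10.48 in HFD + inul PB, without overlap. Top2a, a topoisomerase of dividing cells, differed by -0.68 ± 0.17 (SE, adjusted P = 0.0167) and Pcna, the replication clamp, by -0.54 ± 0.13 (SE, adjusted P = 0.0137), whereas Mki67, an antigen of cycling cells, had 12.97 to 13.37 (median 13.16) and 12.69, 13.09, 12.89, 12.67 and 12.99 (-0.30 ± 0.13, SE, adjusted P = 0.172). The count was 1 under 75th percentile scaling and 0 both without the replicates 5 and with the adipocyte covariate. It was 3 when HFD replicate 5 or the first ester array was left out, and 2 for ester replicates 3, 4 or 5. In a fit of the 2 diets alone it was 11.

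In the list of 41 Wnt, Notch and BMP genes 3 were higher and 2 lower, with a median difference of -0.26. The higher genes kept the call in 2 cases without both replicates 5 and in 1 with the adipocyte covariate, and the lower genes in 0 under either. Bmp2, made by surface epithelium and opposing stem cell renewal, had 10.75 to 11.02 (median 10.97) in HFD and 11.87, 12.02, 12.19, 12.05 and 12.18 in HFD + inul PB (1.14 ± 0.14, SE, adjusted P = 0.000157), on the slides 1.05, 1.21 and 1.23. Ihh, the hedgehog ligand of mature colonocytes, had 13.67 to 14.60 (median 14.45) and 15.05, 15.04, 15.05, 14.96 and 15.42 (0.79 ± 0.15, SE, adjusted P = 0.00404). Klf4, a transcription factor of differentiated epithelium, had 14.08 to 14.83 (median 14.51) and 15.39, 15.41, 15.24, 15.14 and 15.05 (0.73 ± 0.16, SE, adjusted P = 0.00757). The diets did not overlap for any of the 3, as for 77.8% of all called known genes. Bmp2 and Lgr5 stayed called with the adipocyte covariate, and Ihh (adjusted P = 0.0952) and Klf4 (0.176) did not.

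Of 16 histone deacetylases 2 were higher and 1 lower, with 2 higher calls kept without both replicates 5 and 1 with the adipocyte covariate. Hdac4 had 9.17 to 9.36 (median 9.23) in HFD and 9.69, 9.82, 9.89, 9.66 and 9.98 in HFD + inul PB (0.56 ± 0.10, SE, adjusted P = 0.00204), and Hdac1 rose by 0.57 ± 0.11 (SE, adjusted P = 0.00449), on 2 of 3 probes. Maoa, the monoamine oxidase that degrades serotonin, had 12.09 to 12.63 (median 12.52) and 13.38, 13.34, 13.53, 13.34 and 13.67 (0.99 ± 0.12, SE, adjusted P = 0.000100). Pdha1, a subunit of pyruvate dehydrogenase, had 11.01 to 11.71 (median 11.27) and 10.60, 10.53, 10.46, 10.75 and 10.64 (-0.71 ± 0.15, SE, adjusted P = 0.00723), and Cry2, a clock repressor, rose by 0.71 ± 0.16 (SE, adjusted P = 0.0120). Maoa and Hdac4 kept the call with the adipocyte covariate, and Hdac1 (adjusted P = 0.114), Pdha1 (0.166) and Cry2 (0.119) did not. Cry2 was also not called without both replicates 5 (adjusted P = 0.0574). Cnr1, the cannabinoid receptor, had 7.59 to 8.81 (median 7.92) in HFD and 7.93, 7.27, 6.24, 6.66 and 5.74 in HFD + inul PB (-1.31 ± 0.60, SE, adjusted P = 0.226), and Ube2d2a, a ubiquitin-conjugating enzyme, differed by 0.06 ± 0.07 (SE, adjusted P = 0.680).

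Many groups held no call. Respiratory chain complex I (37 genes, median difference 0.01), complexes II to IV with ATP synthase (39 genes, 0.03), glycolysis (18 genes, 0.11), heat shock (13 genes, -0.20), sugar digestion and transport (12 genes, -0.46), smooth muscle (18 genes, 0.09), fibroblast and matrix (22 genes, -0.26), and granulocyte and mast cell (18 genes, -0.20) had 0 genes called by limma at an adjusted P under 0.05. At an unadjusted P under 0.05 complex I had 2 genes higher and 5 lower, complexes II to IV 4 and 4, glycolysis 3 and 2, sugar digestion 1 and 2, heat shock 2 lower, fibroblast and matrix 4 lower, granulocyte and mast cell 1 lower and smooth muscle 0. Endothelial and lymphatic genes had 3 of 16 lower, none of which kept the call whichever array was left out or in either added fit. The mean over the list's detected genes was 9.02 to 9.51 in HFD and 8.47 to 8.98 in HFD + inul PB, without overlap. The part of this difference in the other results was not tested.

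**Figure D5:**
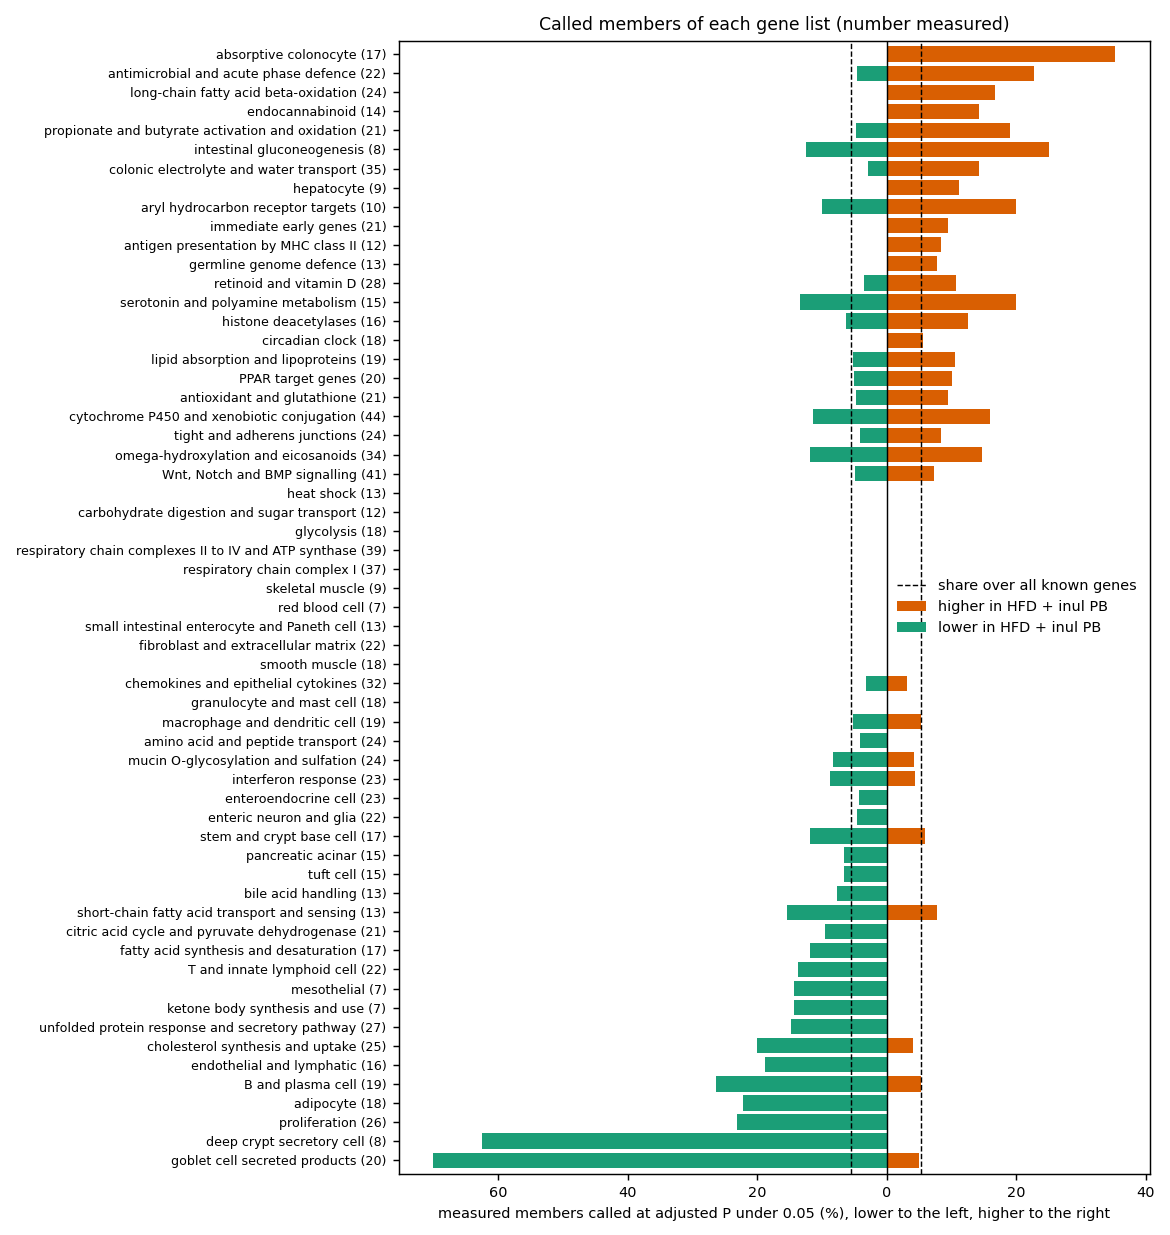
Share of the measured genes of each list that were called higher (orange, to the right) or lower (green, to the left) in HFD + inul PB, for the lists with at least 7 measured genes, the number measured in brackets. Dashed lines mark 5.27% higher and 5.53% lower, the shares over all known genes, and the goblet cell list extends farthest to the left with 14 of 20 genes.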

How the data were processed

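RNA of whole mouse cecum was hybridised to one-colour (Cy3) arrays. The deposited scanner files hold spot intensity, read by Feature Extraction, and flags for background and outliers. The table of processed values deposited by the authors holds log2 values of the same arrays, which served as an alternative. The study's methods state cyclic loess normalisation, and centring is not given in the sources used here. The submitters' notes name limma without a version. The authors removed 1 HFD + inul PB and 1 LFD cecum array.

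Background-subtracted processed intensity was taken as log2, without control and outlier spots. The 22 cecum arrays were normalised by cyclic loess (span 0.7), spots of 1 probe averaged and 55681 probes fitted in limma 3.58.1 (R 4.3.3, data.table version 1.17.8) with a term for each diet. P values were adjusted by Benjamini-Hochberg over all probes and called below 0.05. Mice are the replicates, and each P value sets a diet difference against the spread between mice of a diet, estimated over the 22 cecum arrays. The number of arrays limits the precision. The fit was tested on simulated data. RefSeq accessions named 27509 probes (20887 symbols), each symbol read from its brightest probe, and 19298 without predicted-gene names were known genes. A gene was detected when well above background on at least 11 of 22 arrays. For bounds, an undetected group took the higher of its signal and the lowest signal above background on each array.

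The genes, the 60 lists and the tests were chosen with earlier results of these data known. Named genes were the 15 largest rises and 15 largest falls without overlap, called in all 22 fits leaving out 1 array and well above background on every array of the higher group, the core members and up to 6 called members in each direction of each list, and genes the study named in cecum. Some genes so named are not reported here, and Fhit, Rnase4, Lep, Cd36, Cd3e, Mki67 and Fabp6 were printed as context, some after their values were seen. Muc16, Muc3, Clca4, Duox2 and Cd68 were not matched through the accessions used here and are not analysed. There were 13 other ways of processing, beside leaving out each array, and 2 more chosen after seeing the data (leaving out both replicates 5, and the adipocyte covariate). For normexp, which was planned on the mean spot intensity, the median intensity was used with an offset of 50, since the files used carried no mean column. There were 0 unused columns of single samples.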

Additional observations from a re-analysis of the deposited data

Results flagged for a closer look

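Single arrays stood apart from the rest of their diet by Dixon's criterion in 32 of 264 tests, each of 1 gene in 1 diet (132 genes, 12.1%), where chance gives about 1 in 20. HFD replicate 5 made up 23 of the 32. It was the highest HFD array by its log2 level of Muc2 (15.9), Fcgbp (17.1), Zg16 (18.5), Tff3 (17.7), Agr2 (16.3), Krt20 (17.8), Slc5a8 (11.4), Acaa1a (15.6), Cyp2c68 (9.39), Il7r (7.79), Fabp6 (18.8), Sval1 (10.2) and Rbp7 (11.6). It was the lowest for Reg4 (14.4), Slc26a3 (12.7), Car1 (17.1), Aqp8 (15.9), Muc4 (12.4), Pcca (9.75), Cyp4f15 (5.00), Cyp2d10 (7.49), Nod2 (6.55) and Ankrd22 (5.60). It is also the array with the highest small intestinal marker mean, and the part of that signal in these levels was not tested.

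HFD replicate 2 was the lowest HFD array for Acsm3 (9.42) and Gsta4 (9.66), HFD replicate 4 the lowest for Cxcl10 (8.65) and HFD replicate 3 the highest for Sprr2h (4.81). Among the ester arrays replicate 5 was the highest for Mertk (11.9) and Ihh (15.4), replicate 4 the highest for Pck1 (13) and Fabp4 (12.8), and replicate 1 the lowest for Acaa1b (12.2).

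The fiber diets differed for 5 genes by the test of HFD + inul PB against HFD + inulin. The difference was 3.09 for Ang4, 1.86 for Ang2, 1.10 for Ang, -1.14 for Mt1 and -1.65 for Mt2 on the log2 scale.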

How the results depend on the processing

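Of 3907 probes called between HFD + inul PB and HFD, other processing called between 2654 (75th percentile scaling, 1758 higher and 896 lower) and 5541 (only probes well above background, 27163 tested), and 2611 passed the study's own criteria of fold and unadjusted P. Leaving out 1 array gave 2248 (without HFD + inul PB replicate 5) to 4609 (without HFD + inulin replicate 5). Without both replicates 5 the count was 2175, and with the adipocyte covariate 528. The adipocyte mean itself ran lower on the esters, so by construction the covariate takes up part of the diet difference. The covariate also lowered the goblet cell count from 14 to 9 and the absorptive colonocyte count from 6 to 2. Against HFD + inulin 12 probes were called, 20 among probes well above background and 11 to 35 when 1 array was left out (35 without HFD + inulin replicate 4), and the calls of Ang and Mt1 were lost in a fit of the 2 diets alone. The difference in the share of spots above background ran from -0.335 to 1.16 percentage points over the arrays left out, with -0.142, -0.233 and -0.0243 also below 0.

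Signs reversed for values that had not passed the test. The median of the electrolyte list (0.06) ran from -0.00227 to 0.0987 over the arrays left out and Car1, its median gene at the low end, from -0.00227 to 0.222, the low ends being those without both replicates 5. Clca1 ran from -0.058 to 0.24 when 1 array was left out, with -0.0325 without HFD + inul PB replicate 2. Ube2d2a (0.06) was -0.0145 with normexp, -0.0188 without background correction and -0.0195 on the authors' values. With the adipocyte covariate Cfd was 0.57 and Fabp6 0.305. Cfd is an adipocyte gene, so a covariate of adipocyte markers takes up its difference by construction.

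Of the 132 named genes, between 124 and 132 kept their direction and side of the threshold under each of the 13 other ways of processing that could test them, beside 106 without both replicates 5 and 66 with the covariate. Against HFD, 4 of the 13 called Mt2, 5 Saa1, 7 Adipoq and 3 Lep, which missed the threshold above. With the replicate number as a block 3674 probes were called. The labels give no pairing, the deviations of same-numbered arrays correlated between -0.0217 and 0.2, and 4 of 5 arrays correlated best with their own number, so the block is a hint only. Probes near background, such as Sprr2h and Nyx in HFD, carry only bounds, and a whole-tissue signal does not separate cell number from RNA per cell. The causes of these shifts were not tested.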

Other observations

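Among lists not described above, 2 of 14 endocannabinoid genes were higher, both whichever array was left out but neither with the adipocyte covariate (adjusted P = 0.163 and 0.102): Daglb, a lipase that makes 2-arachidonoylglycerol (0.66 ± 0.14, SE, adjusted P = 0.00735), and Abhd6, a lipase that degrades it (0.48 ± 0.09, SE, adjusted P = 0.00467). Of 21 antioxidant genes 2 were higher and 1 lower, with Prdx6 (0.68 ± 0.16) and Prdx5 (0.37 ± 0.08), peroxiredoxins that reduce peroxides, keeping their calls whichever array was left out, though Prdx6 lost its call with the adipocyte covariate (adjusted P = 0.183). Rxra, the partner of nuclear receptors for retinoids, vitamin D and fatty acids, was higher by 0.66 ± 0.14 (SE, adjusted P = 0.00777) and was the 1 gene that kept its call whichever array was left out among 28 of retinoid and vitamin D metabolism, where 3 were higher and 1 lower. It lost the call without both replicates 5 (adjusted P = 0.0518) and with the covariate (0.0528). Fabp7, a fatty acid binding protein of enteric glia, was well above background on 4 of 6 HFD arrays and 0 of 5 ester arrays, at least 2.08-fold lower on the esters (adjusted P = 0.00519; 0.109 with the covariate), the 1 call among 22 neuron and glia genes. Fbp2, a fructose bisphosphatase, differed by -0.56 ± 0.10 (SE, adjusted P = 0.00306; 0.0767 with the covariate), and of 8 gluconeogenesis genes 2 were higher and 1 lower.

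In PPAR targets 2 of 20 genes were higher and 1 lower, in lipid absorption 2 of 19 and 1, in aryl hydrocarbon receptor targets 2 of 10 and 1, in the interferon response 1 of 23 and 2, in chemokines and epithelial cytokines 1 of 32 and 1 and in serotonin and polyamine metabolism 3 of 15 and 2. Of 17 genes of fatty acid synthesis 2 were lower, as were 2 of 21 in the citric acid cycle, 1 of 24 in amino acid transport, 1 of 15 tuft cell, 1 of 7 mesothelial and 1 of 15 pancreatic acinar markers. Of 21 immediate early genes 2 were higher, as were 1 of 18 clock genes and 1 of 9 hepatocyte markers. Whichever array was left out, calls were kept by 1 higher gene each of lipid absorption, aryl hydrocarbon receptor targets, immediate early and clock genes, by 1 lower gene each of chemokines and the citric acid cycle, and by 2 higher and 1 lower of serotonin and polyamine metabolism, and by 0 of the PPAR, interferon, fatty acid synthesis, amino acid transport, tuft, mesothelial, acinar and hepatocyte lists. None of 7 red blood cell and 9 skeletal muscle markers was called by limma, and none had an unadjusted P under 0.05.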
